A study of Mus musculus with 24 samples.

Results

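The 10 genes described here encode the CatSper calcium channel, a potassium channel of sperm and a proton channel. The genes were taken by symbol from the 24456 genes of each count table. They are *Catsper1*, *Catsper2*, *Catsper3* and *Catsper4*, which encode the pore of the CatSper calcium channel, *Catsperb*, *Catsperg1*, *Catsperg2* and *Catsperd*, which encode its auxiliary subunits, *Kcnu1*, which encodes the sperm potassium channel SLO3, and *Hvcn1*, which encodes a voltage-gated proton channel. All 10 were present in the tables and all 10 were among the 17170 genes that passed the filter on low counts.

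CatSper is the main route of calcium entry into the flagellum of mature sperm and is opened by alkaline pH inside the cell. Its pore is made of CATSPER1 to CATSPER4 together and mouse sperm that lack any of them cannot hyperactivate and do not fertilise. The auxiliary subunits are membrane proteins with large extracellular parts that surround the pore. SLO3 is opened by alkaline pH as well and sets the membrane potential of capacitated sperm, and the proton channel lets protons leave the cell. The transcripts of the CatSper genes and *Kcnu1* are made during spermatogenesis, before the flagellum is in use.

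Whole testes of wild-type mice (WT) and of mice homozygous for an *Atad2* knockout allele (KO) were sampled in the first wave of spermatogenesis, when the first haploid cells appear, to ask how the loss of the chromatin factor ATAD2 alters transcription. There were 4 WT and 4 KO libraries at each of postnatal days 20 and 22, and 2 WT and 2 KO libraries at each of days 24 and 26, named here by genotype, day and number as in WT_d20_2. The KO allele carries a *lacZ* cassette spliced to exon 11 of *Atad2* and lacks exon 12, which was deleted in every tissue by Cre driven from the CMV promoter, and the labels call the WT groups wild type with no further detail. The study's methods give fewer samples per genotype for day 20 than the labels do, and all labelled libraries were used. The labels describe the replicates by number only, so the p-values measure the spread between these samples.

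Each library held between 10709667 and 19491935 counts in genes. WT_d20_2 had the fewest and stood apart, with 13.7% of its read pairs aligned to several places against 4.74% to 9.16% in the other 23 libraries. The log2 difference of *Atad2* between KO and WT was -1.67, -1.12, -1.43 and -1.25 at days 20, 22, 24 and 26, of which the last missed the threshold in edgeR (adjusted p = 0.0628), and no KO library reached the lowest WT library of its day. The labels' extraction protocol mentions a purification of spermatogenic cells, but the markers of Sertoli cells, with a summed level of 910 to 2150 CPM, and of Leydig cells, with 246 to 1740 CPM, were present in every group, as in whole testis. The markers of round spermatids, 7 acrosomal and related genes, summed to 3.18 to 10.2 CPM in WT at day 20 and to 545 to 562 CPM in WT at day 26. CPM, the unit of level used here, scales counts to library size and corrects for library composition.

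*Catsper1* lies at chr19:5335741-5344280 on the plus strand of mm10, and *Catsper2* at chr2:121392631-121413792 on the minus strand, head to head with *Pdia3*, whose exons overlap it by 18 bases on the other strand. *Catsper3* lies at chr13:55784568-55808998 on the plus strand and *Catsper4* at chr4:134211970-134227383 on the minus strand. The auxiliary subunit genes are *Catsperb* at chr12:101404653-101626009 (plus strand), *Catsperg1* at chr7:29181321-29214035 and *Catsperg2* at chr7:29697219-29727032 (both minus strand), and *Catsperd* at chr17:56628143-56664456 (plus strand). *Kcnu1* lies at chr8:25849623-25937939 and *Hvcn1* at chr5:122206804-122242297, both on the plus strand. The genes are therefore on 9 autosomes, and only the 2 genes for the gamma subunit are on the same one. These 2 genes share 28.7% of the 75-base windows of the longest *Catsperg1* transcript, and pairs that aligned to both were discarded, so their levels are uncertain. *Catsperb* likewise shares 10.1% of its windows with *Gm18795*. *Hvcn1* overlaps *Tctn1* over 4450 bases on the opposite strand, which strand-specific counting is meant to separate. The group means were 51.5 to 68 CPM for *Tctn1* and 4.46 to 6.46 CPM for *Hvcn1*, and leakage between the strands was not measured.

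Promoter sequence was examined for a pair of genes that were near 0 at day 20, *Catsper3* and *Catsper4*, and for a pair that were already expressed, *Catsperb* and *Catsperg1*. RefSeq windows on GRCm38.p6, the build of the files, covered 6 of the 10 genes. The 250 bases before each start site were searched on both strands for 5 motifs. These were the cyclic AMP response element TGACGTCA and its first part TGACG, the site bound by CREM in spermatids, the X-box of RFX factors, the core CAGTTG of MYB factors such as the pachytene regulator MYBL1, and the TATA box TATAAA. The X-box was added after the sequences had been read. The sequences are shown 5′ to 3′ on the strand of the gene, from the far end of the window up to the base before the annotated gene, with motif matches in capitals.

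Catsper3, chr13:55784329-55784567: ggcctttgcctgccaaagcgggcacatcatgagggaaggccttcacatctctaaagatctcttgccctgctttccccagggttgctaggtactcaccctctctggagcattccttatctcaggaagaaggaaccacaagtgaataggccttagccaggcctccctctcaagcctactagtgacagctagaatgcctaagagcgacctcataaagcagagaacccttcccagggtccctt

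Catsper4, chr4:134227384-134227633: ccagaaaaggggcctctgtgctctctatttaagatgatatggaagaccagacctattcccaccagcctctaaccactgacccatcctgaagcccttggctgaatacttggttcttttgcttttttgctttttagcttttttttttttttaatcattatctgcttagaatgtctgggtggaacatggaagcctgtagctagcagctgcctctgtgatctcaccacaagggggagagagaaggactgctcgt

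Catsperb, chr12:101404423-101404652: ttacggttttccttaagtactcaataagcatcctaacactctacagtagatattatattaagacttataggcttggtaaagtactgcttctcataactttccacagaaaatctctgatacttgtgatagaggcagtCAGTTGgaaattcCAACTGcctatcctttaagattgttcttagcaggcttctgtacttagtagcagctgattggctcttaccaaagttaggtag

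Catsperg1, chr7:29214036-29214283: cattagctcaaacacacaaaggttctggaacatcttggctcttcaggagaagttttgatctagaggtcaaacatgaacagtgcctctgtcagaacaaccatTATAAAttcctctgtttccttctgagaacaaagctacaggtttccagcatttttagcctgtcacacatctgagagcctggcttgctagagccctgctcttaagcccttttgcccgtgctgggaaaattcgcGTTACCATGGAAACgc

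The windows of *Catsper3* and *Catsper4* hold none of the 5 motifs. *Catsperb* has 2 copies of the MYB core, 114 and 101 bases before the start site and on opposite strands, and 11.1% of all 32851 windows hold at least 1. *Catsperg1* has an X-box 18 bases before the start site, which 0.11% of all windows hold, and a TATA box 149 bases before it, which 12.4% hold. The table has a second window for *Catsperg1*, at a start site inside the gene, which holds none of the 5 motifs and is not shown. The full cyclic AMP response element is in 1.55% of all windows and in none of the windows of the 6 genes, and its first part, in 17.8% of all windows, is also in that of *Catsper2* and in 1 of the 2 of *Catsperd*. These are matches of letters and not measured sites.

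In WT testis, 3 of the 4 pore subunit genes were almost silent at day 20 and rose 169- to 208-fold by day 26, while the fourth, *Catsper2*, and the auxiliary subunit genes were already expressed at day 20. *Catsper1* measured 0.55, 0.105, 0.116 and 1.37 CPM in the 4 WT libraries of day 20, from 1 to 19 counts each. It measured 17.3, 8.7, 15.1 and 11.1 CPM at day 22, 67.9 and 43.5 CPM at day 24, and 93.3 and 97.2 CPM at day 26. No 2 days overlapped. From day 20 to day 26 *Catsper1* rose by 7.43 on the log2 scale (SE 0.858, adjusted p = 1.25e-06 in the quasi-likelihood test of edgeR), or 172-fold. The size rests on few counts, and leaving out 1 library gave 6.98 (without WT_d20_3) to 8.48 (without WT_d20_4). The tissue was not separated, so more cells of a type and more RNA per cell cannot be told apart here or below.

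*Catsper3* had 0, 1, 0 and 9 counts in the WT libraries of day 20, which is 0, 0.105, 0 and 0.648 CPM. It reached 7.11, 3.51, 4.83 and 4.76 CPM at day 22, 29.4 and 19.5 CPM at day 24, and 37.8 and 43.9 CPM at day 26. *Catsper4* had 2, 2, 1 and 10 counts at day 20, or 0.157, 0.211, 0.0578 and 0.72 CPM. Both genes were thus at the limit of detection in 3 of 4 libraries, and WT_d20_4 held most of what was counted. *Catsper4* measured 7.39, 5.18, 7.4 and 6.75 CPM at day 22, 31.8 and 25.7 CPM at day 24, and 46.6 and 51.8 CPM at day 26. By the fit, *Catsper3* rose by 7.7 (SE 0.821, adjusted p = 5.57e-07 in edgeR) and *Catsper4* by 7.4 (SE 0.784, adjusted p = 5.14e-07 in edgeR) on the log2 scale. Leaving out 1 library gave 7.15 to 10.21 for *Catsper3* and 6.94 to 8.47 for *Catsper4*, each lowest without WT_d20_3 and highest without WT_d20_4. Without WT_d20_4, all day 20 libraries lay at or under 3 counts, so that the fitted value rests on counts at the limit of detection. Against a floor of 3 counts the mean at day 26 was at least 169-fold higher for *Catsper3* and at least 204-fold higher for *Catsper4*. These values leave out the highest WT library of day 20 and are not bounds for all 4. Over the 4 libraries pooled, *Catsper3* stood at 0.187 CPM (95% exact Poisson interval 0.0898 to 0.344, which covers counting error only), *Catsper4* at 0.281 CPM (0.157 to 0.463) and *Catsper1* at 0.543 CPM (0.364 to 0.78).

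*Catsper2* differed from the other pore genes. It measured 56.6, 35.9, 45.4 and 57.9 CPM in WT at day 20, 110, 87.6, 110 and 104 CPM at day 22, 127 and 113 CPM at day 24, and 146 and 163 CPM at day 26. Its lowest value, in WT_d20_2, was 341 counts, and the day 20 libraries all lay below those of day 22. The rise from day 20 to day 26 was 1.66 on the log2 scale (SE 0.166, adjusted p = 1.62e-07 in edgeR), or 3.16-fold. As a share of its own mean at day 26, *Catsper2* stood at 31.6% at day 20, where *Catsper1*, *Catsper3* and *Catsper4* stood at 0.561%, 0.461% and 0.582%. At day 22 the shares were 66.4%, 13.7%, 12.4% and 13.6%, and at day 24 they were 77.8%, 58.5%, 59.9% and 58.5%. The 3 late pore genes had near-equal shares at every day, and *Catsper2* was ahead of them at each.

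**Figure D1:**
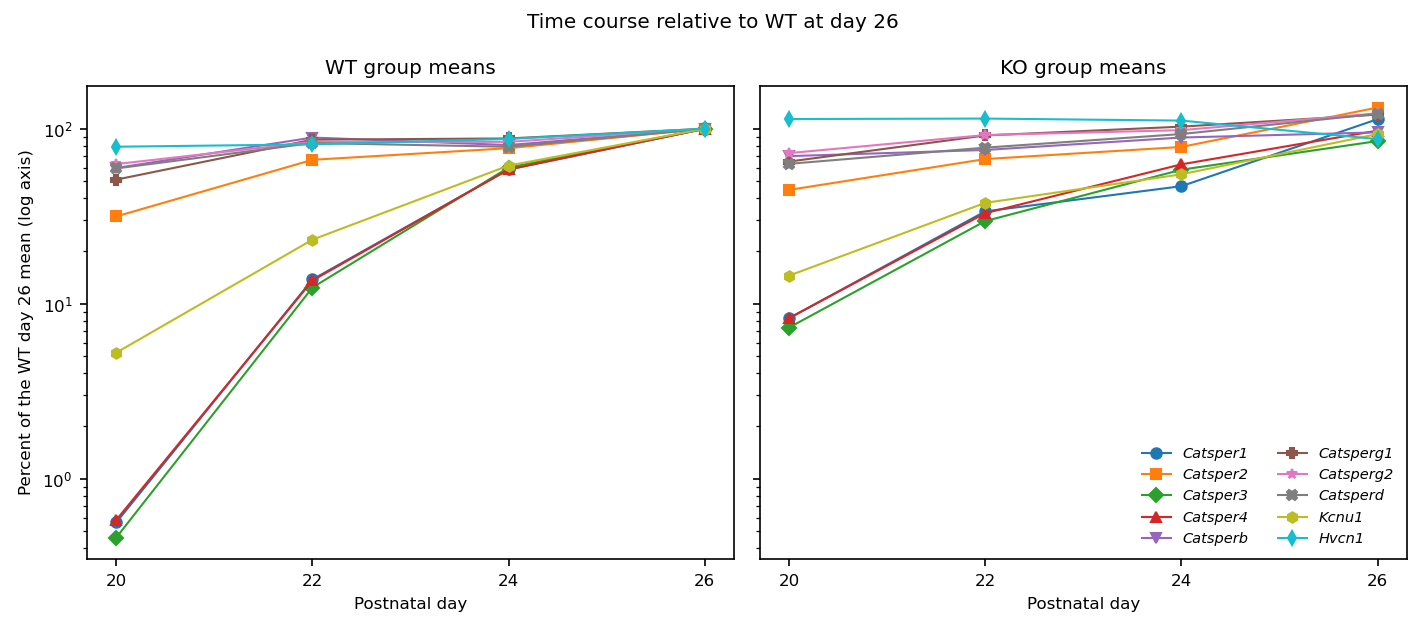
Mean level of each of the 10 genes by postnatal day, as a percent of that gene's mean in WT at day 26 (log axis), for WT on the left and KO on the right (n = 4 libraries at days 20 and 22, n = 2 at days 24 and 26; no error bars are drawn). In WT, *Catsper1*, *Catsper3* and *Catsper4* start under 1%, *Kcnu1* at 5.26%, *Catsper2* at 31.6% and the auxiliary genes and *Hvcn1* at 51.3% to 79.1%.

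The auxiliary subunit genes were expressed in every library and rose little. *Catsperb*, the gene of the beta subunit, ranged over 93.1 to 212 CPM in WT at day 20 and measured 246 and 230 CPM at day 26. *Catsperd*, which is needed for CatSper to be stable, ranged over 58.1 to 87.5 CPM at day 20 and measured 116 and 123 CPM at day 26. *Catsperg1* went from 45.9 to 105 CPM at day 20 to 135 and 148 CPM at day 26, and *Catsperg2* from 75.4 to 138 CPM to 158 and 170 CPM. All 4 rose from day 20 to day 26, by 0.75 (*Catsperb*, SE 0.225, adjusted p = 0.0107), 0.96 (*Catsperg1*, SE 0.22, adjusted p = 0.00142), 0.67 (*Catsperg2*, SE 0.181, adjusted p = 0.00551) and 0.76 (*Catsperd*, SE 0.174, adjusted p = 0.00148) on the log2 scale in edgeR. At day 20 they stood at 59.6%, 51.3%, 63% and 59.2% of their means at day 26. Without WT_d26_1 the rise of *Catsperb* missed the threshold, and without WT_d26_2 that of *Catsperg2* did, with adjusted p up to 0.0665 and 0.0585.

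*Kcnu1* lay between these sets. It measured 3.54, 4.95, 3.41 and 6.55 CPM in WT at day 20, 24.5, 20.3, 19.3 and 17.5 CPM at day 22, 63 and 45.2 CPM at day 24, and 82 and 93.5 CPM at day 26. The days did not overlap, and the gene was detected with 45 to 91 counts in every library of day 20. The rise over the 6 days was 4.25 on the log2 scale (SE 0.37, adjusted p = 7.01e-08 in edgeR), or 19.1-fold. *Hvcn1* was low and level, at 4.95, 2.63, 5.95 and 4.32 CPM at day 20 and 5.91 and 5.38 CPM at day 26. Its difference of 0.32 (SE 0.372) did not pass the test (adjusted p = 0.507 in edgeR), and its values at day 24, 2.48 and 7.4 CPM, spanned all others of WT.

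Of the 10 genes, 9 rose in WT between days 20 and 26, and 24.4% of all 17170 genes tested rose in the same comparison. The median difference was 1.31 over the 10 genes and -0.04 over all genes. From day 20 to day 22, 8 of the 10 rose, against 12.9% of all genes. The exceptions were *Catsperg2* (0.42, SE 0.152, adjusted p = 0.0567 in edgeR) and *Hvcn1* (0.02, SE 0.311). From day 22 to day 24, 3 of the 10 rose, against 5.88% of all genes, namely *Catsper3* (2.27, SE 0.583, adjusted p = 0.025), *Catsper4* (2.1, SE 0.574, adjusted p = 0.0347) and *Kcnu1* (1.41, SE 0.346, adjusted p = 0.0179), while *Catsper1* gave 2.09 (SE 0.65, adjusted p = 0.0695). These 3 calls are fragile, since 1 was made by DESeq2 and none without WT_d22_2, WT_d22_3, WT_d22_4 or WT_d24_1. From day 24 to day 26 edgeR called 0 of the 10 and 0.274% of all genes, with 0 of the 10 at an unadjusted p under 0.05 and 0 called by DESeq2. The late genes thus had most of their change on the log2 scale between days 20 and 22.

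**Figure D2:**
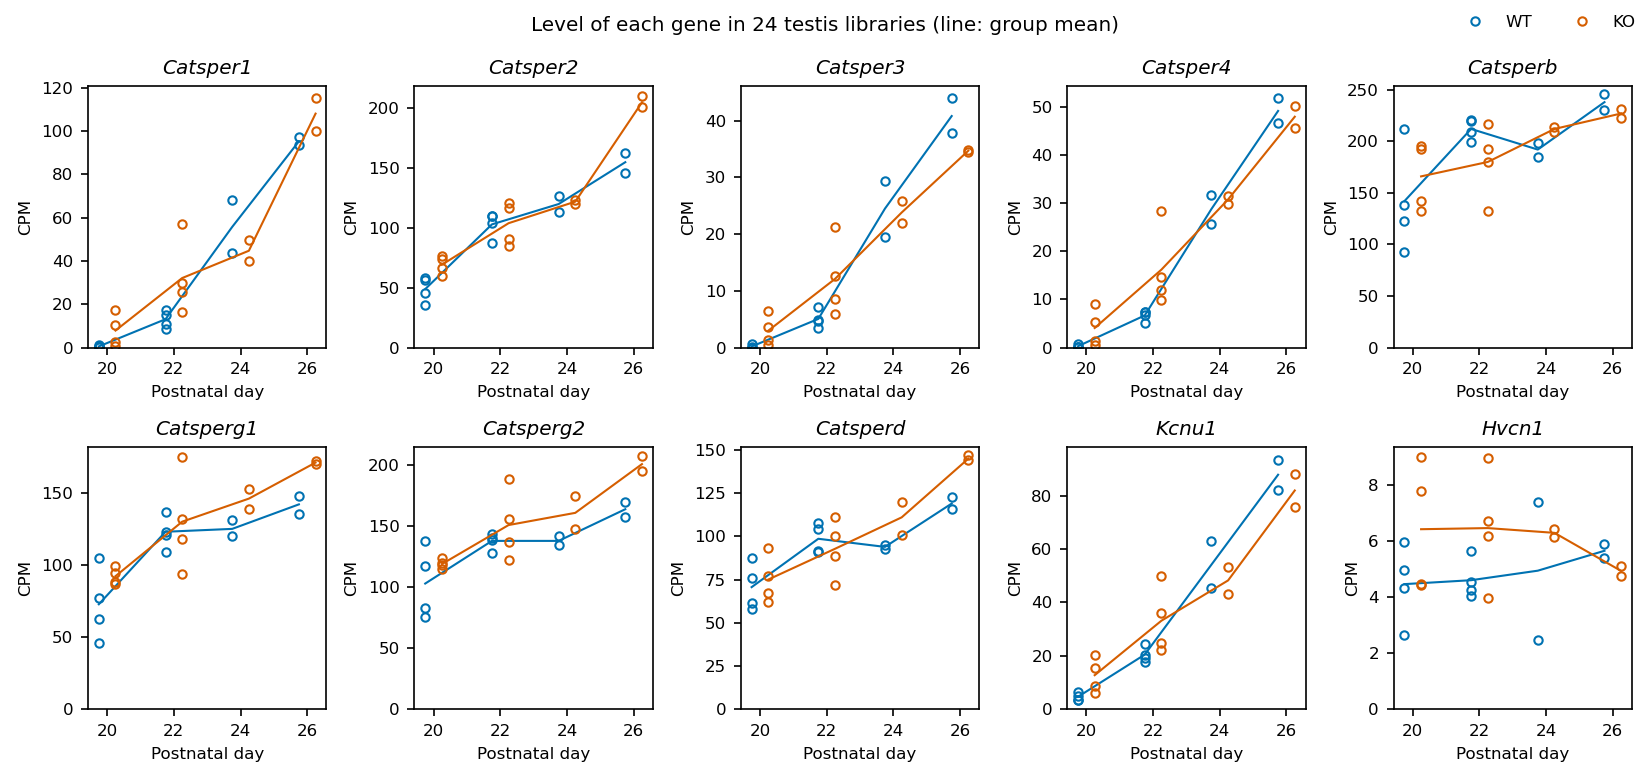
CPM of each of the 10 genes in the 24 libraries by postnatal day, with WT in blue and KO in orange, 1 circle per library and a line through the group means (each panel has its own axis from 0). *Catsper1*, *Catsper3*, *Catsper4* and *Kcnu1* climb from near the axis, the other CatSper genes start high, and *Hvcn1* stays between 2.48 and 9.01 CPM.

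The composition of the pore transcripts changed with these time courses. Per kilobase of exon, *Catsper2* made up 97.9%, 97.7%, 99.3% and 91.6% of the summed level of the 4 pore genes in WT at day 20. It made up 64% to 72.4% at day 22, 33.7% and 39.8% at day 24, and 30% and 30.4% at day 26. At day 26 *Catsper1* took 31.4% ± 1.22, *Catsper3* 21.6% ± 0.823 and *Catsper4* 16.9% ± 0.115 (SD, n = 2). The pore transcripts thus went from nearly all *Catsper2* to a mixture of the 4. How *Catsper1* and *Catsper2* compare at day 26 depends on the length used. With the longest transcript in place of all exons, *Catsper2* made up 39.6% and *Catsper1* 25.6%, since the exons of *Catsper2* span 3.695 kb and its longest transcript 2.293 kb. Among the late pore genes, *Catsper1* over *Catsper4* per kilobase was 1.85 ± 0.316 at day 22 (SD, n = 4) and 1.86 ± 0.0854 at day 26 (SD, n = 2) in WT. Over all groups from KO at day 20 on, the mean of this ratio lay between 1.39 (KO at day 24) and 2.17 (KO at day 26), and that of *Catsper1* over *Catsper3* between 1.17 and 1.93 (the same groups). In WT the means lay between 1.84 and 1.86 for the first ratio and between 1.41 and 1.62 for the second.

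**Figure D3:**
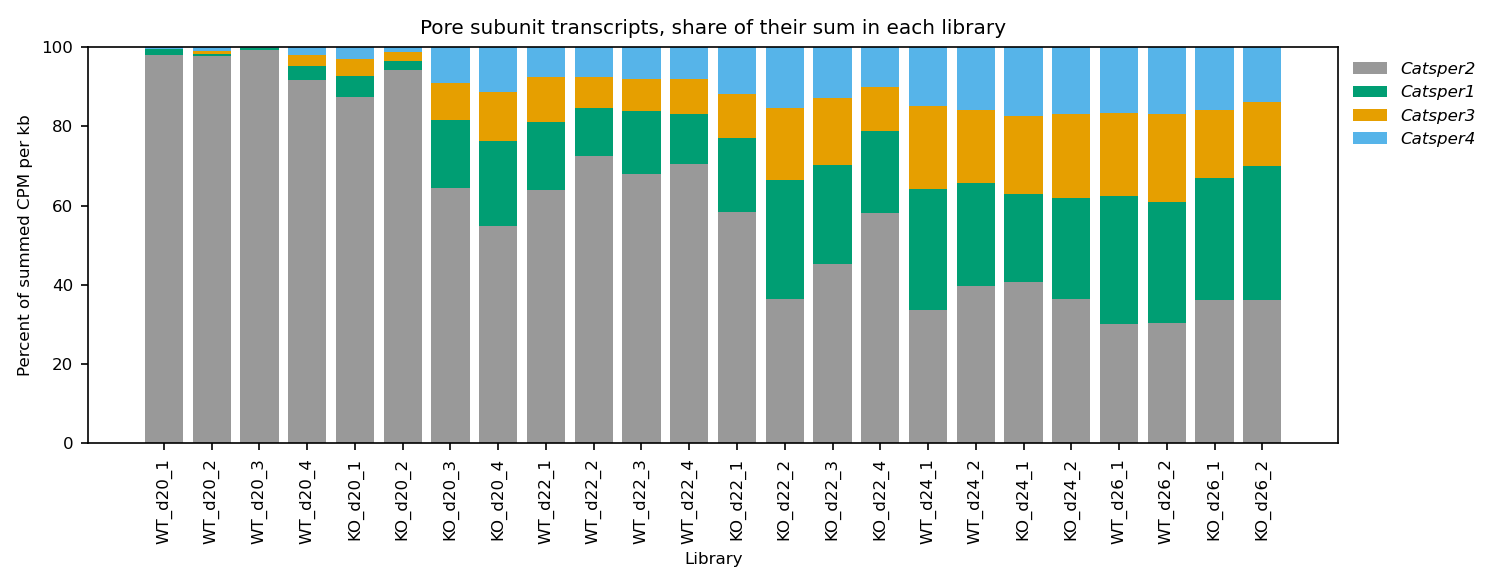
Share of each pore subunit gene in their summed CPM per kilobase of exon, 1 stacked bar per library in the order of days with WT before KO at each day. *Catsper2* (grey) falls from 91.6% to 99.3% in the WT libraries of day 20 to 30% and 30.4% in those of day 26, and KO_d20_3 and KO_d20_4 lie near the libraries of day 22.

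By level per kilobase of exon, the order in WT at day 26 was led by *Catsper1* (43.5 ± 1.27 CPM per kb, SD, n = 2), *Catsperb* (43.1 ± 2.11) and *Catsper2* (41.9 ± 3.26), whose libraries overlapped. *Catsperd* (33.3 CPM per kb) and *Catsper3* (30) followed and overlapped each other, then *Kcnu1* (23.5), *Catsper4* (23.4) and *Catsperg2* (23.3), which also overlapped, then *Catsperg1* (20.1) and, far below, *Hvcn1* (1.58). At day 20 the order in WT was *Catsperb* (25.7), *Catsperd* (19.7), *Catsperg2* (14.7), *Catsper2* (13.2) and *Catsperg1* (10.3), each overlapping the next, then *Hvcn1* (1.25) and *Kcnu1* (1.23), and last *Catsper1* (0.244), *Catsper3* (0.138) and *Catsper4* (0.136). The place of *Catsper1* at day 26 also depends on the length, since with the longest transcript *Catsper2*, *Catsperb* and *Catsperd* had higher means.

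In KO testis the late genes also rose most, from a higher mean at day 20. Between days 20 and 26, 8 of the 10 genes rose in KO, against 27.2% of all genes. *Catsper1* rose by 3.77 (SE 0.667, adjusted p = 0.000159), *Catsper3* by 3.54 (SE 0.6, adjusted p = 0.000108), *Catsper4* by 3.56 (SE 0.588, adjusted p = 8.58e-05) and *Kcnu1* by 2.69 (SE 0.347, adjusted p = 5.89e-06) on the log2 scale in edgeR. Leaving out 1 library gave 3.4 to 4.53 for *Catsper1*, 3.18 to 4.22 for *Catsper3* and 3.18 to 4.3 for *Catsper4*, each lowest without KO_d20_2 and highest without KO_d20_4. *Catsper2* rose by 1.57 (SE 0.165), *Catsperg1* by 0.89 (SE 0.22), *Catsperg2* by 0.75 (SE 0.18) and *Catsperd* by 0.95 (SE 0.173). *Catsperb* (0.46, SE 0.226, adjusted p = 0.0948) and *Hvcn1* (-0.38, SE 0.376, adjusted p = 0.407) did not pass. The rise of the late genes was smaller in KO than in WT, with a difference of -3.66 for *Catsper1* (SE 1.16), -4.16 for *Catsper3* (SE 1.14), -3.85 for *Catsper4* (SE 1.08) and -1.56 for *Kcnu1* (SE 0.524), but the test of that difference called 0 of the 10 genes in edgeR (lowest adjusted p = 0.176, 4 of 10 at an unadjusted p under 0.05) and 0% of all genes. DESeq2 called *Catsper3* alone (-4.17, adjusted p = 0.0456), and without KO_d20_2 edgeR called 4. From day 20 to day 22, 5 genes rose in KO, against 7.37% of all genes: *Catsper1* (2.03), *Catsper2* (0.58), *Catsper3* (2.02), *Catsper4* (1.99) and *Kcnu1* (1.39). None of these 5 was called without KO_d20_1, KO_d20_2 or KO_d22_2. From day 22 to day 24 edgeR called 0 of the 10 (0.402% of all genes, 0 of 10 unadjusted, 0 by DESeq2), and from day 24 to day 26 also 0 (0.0116% of all genes, 1 of 10 unadjusted), where DESeq2 called *Catsper2* (0.82, adjusted p = 0.00639).

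Set against WT at day 20, 4 of the 10 genes were higher in KO, against 2.98% of all genes tested, and these were the 3 late pore genes and *Kcnu1*. *Catsper1* measured 2.54, 0.85, 10.5 and 17.5 CPM in KO, where WT had 0.105 to 1.37 CPM. *Catsper3* measured 1.38, 0.523, 3.63 and 6.37 CPM, and *Catsper4* 1.45, 0.458, 5.35 and 9.01 CPM. In each gene KO_d20_3 and KO_d20_4 were high, KO_d20_2 lay below WT_d20_4, and the groups overlapped. *Kcnu1* measured 8.71, 6.15, 15.5 and 20.4 CPM in KO, where only KO_d20_2 lay below the highest WT library at 6.55 CPM. The differences were 3.83 for *Catsper1* (SE 0.831, adjusted p = 0.0146), 3.93 for *Catsper3* (SE 0.873, adjusted p = 0.0166), 3.81 for *Catsper4* (SE 0.801, adjusted p = 0.0127) and 1.46 for *Kcnu1* (SE 0.329, adjusted p = 0.0162) on the log2 scale in edgeR. Leaving out 1 library gave 3.07 (without KO_d20_4) to 4.93 (without WT_d20_4) for *Catsper1* and, at the low end without KO_d20_4, 3.24 for *Catsper3*, 3.07 for *Catsper4* and 1.14 for *Kcnu1*. Without WT_d20_4 the fit gave 6.48 for *Catsper3* and 4.93 for *Catsper4*, values that rest on WT counts at the limit of detection. Without WT_d20_4, against the floor of 3 counts in the other WT libraries, the KO mean was at least 12.3-fold higher for *Catsper3* and at least 16.8-fold higher for *Catsper4*. These values leave out the highest WT library and are not bounds for all 4.

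These calls rested on few libraries and moved with the markers of spermatids. Without WT_d20_1, WT_d20_2, WT_d20_3 or KO_d20_4 none of the 10 genes was called, without KO_d20_3 *Kcnu1* was not, and none was called with day 20 fitted alone. In that fit the differences were nearly as before, at 3.84 for *Catsper1* (adjusted p = 0.187), 3.8 for *Catsper4* (adjusted p = 0.184) and 1.46 for *Kcnu1* (adjusted p = 0.193 in edgeR), and *Catsper3* did not pass its filter. The 7 round spermatid markers, all measured, summed to 23.1, 9.22, 54.9 and 91.7 CPM in the KO libraries of day 20 in order of number, and to 4.56, 3.69, 3.18 and 10.2 CPM in WT. The 6 elongating spermatid markers summed to 1.7 to 50.3 CPM in KO and 0.842 to 4.68 CPM in WT. Each marker of both lists had counts in every group. With a stage score for each library, the round spermatid minus the pachytene marker score, as a covariate, the differences were 0.46 for *Catsper1*, 0.99 for *Catsper3*, 0.75 for *Catsper4* and -0.02 for *Kcnu1*, with adjusted p from 0.772 to 0.998 in edgeR. Side by side, KO_d20_4 had 91.7 CPM of round spermatid markers with 17.5 CPM of *Catsper1* and 20.4 CPM of *Kcnu1*, and WT_d22_1 had 84.1 CPM of markers with 17.3 CPM of *Catsper1* and 24.5 CPM of *Kcnu1*. The part of the number of spermatids in these differences was not tested.

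**Figure D4:**
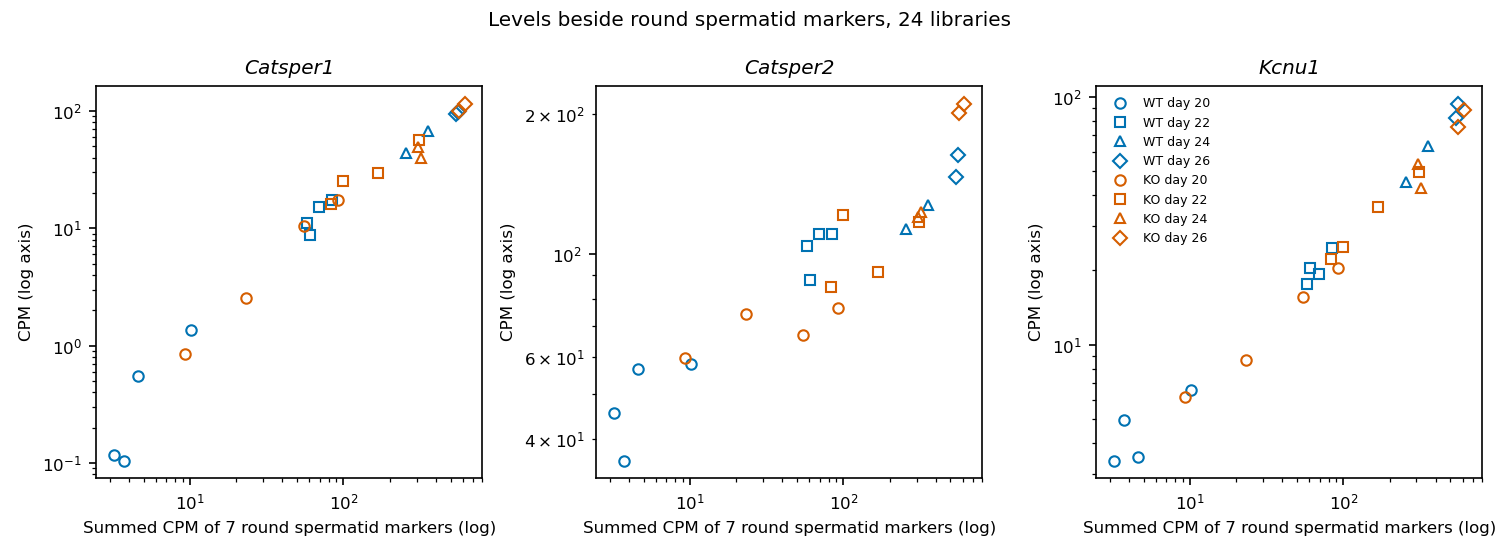
CPM of *Catsper1*, *Catsper2* and *Kcnu1* against the summed CPM of 7 round spermatid markers in the 24 libraries (both axes log), with WT in blue, KO in orange and a symbol for each day. KO_d20_4, at 91.7 CPM of markers, lies just to the right of the WT libraries of day 22, which span 58.1 to 84.1 CPM, with *Catsper1* at 17.5 CPM against their 8.7 to 17.3 CPM, *Kcnu1* at 20.4 CPM against 17.5 to 24.5 CPM and *Catsper2* at 76.4 CPM against 87.6 to 110 CPM.

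*Catsper2* was the exception among the pore genes. Its levels at day 20 were 74.1, 59.6, 66.8 and 76.4 CPM in KO and at most 57.9 CPM in WT, so that all KO libraries lay above all WT libraries. It was the 1 gene of the 10 whose groups did not overlap at day 20, where 3.03% of all genes were higher in KO without overlap. The difference of 0.5 (SE 0.142) missed the threshold in edgeR (adjusted p = 0.0581) and passed it in DESeq2 (0.5, adjusted p = 0.0218). The score of the 6 pachytene markers, their mean centred log2 level, likewise did not overlap, at -0.35 to -0.17 in KO and -0.9 to -0.4 in WT, while their summed levels did, at 2720 to 3330 CPM and 2260 to 2860 CPM. Leydig markers summed to 398, 258, 573 and 651 CPM in KO and 246 to 349 CPM in WT. The part of either in the differences at day 20 was not tested. The auxiliary genes gave smaller differences at day 20, of 0.23 for *Catsperb* (SE 0.188), 0.34 for *Catsperg1* (SE 0.186), 0.21 for *Catsperg2* (SE 0.152) and 0.09 for *Catsperd* (SE 0.146), and *Hvcn1* gave 0.51 (SE 0.307). None of these 5 passed (adjusted p from 0.498 to 0.89 in edgeR). The spread within groups differed by gene, with an SD of 50.7 CPM in WT and 33.3 CPM in KO for *Catsperb* and of 13.6 and 13.8 CPM for *Catsperd*. *Catsperb* measured 123, 212, 93.1 and 138 CPM in WT, highest in WT_d20_2, which stood apart, and 132 to 195 CPM in KO. Leaving out 1 library gave 0.07 to 0.47 for *Catsperb*, with adjusted p from 0.0974 to 0.895 in edgeR. The part of this spread in the missing calls was not tested.

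**Figure D5:**
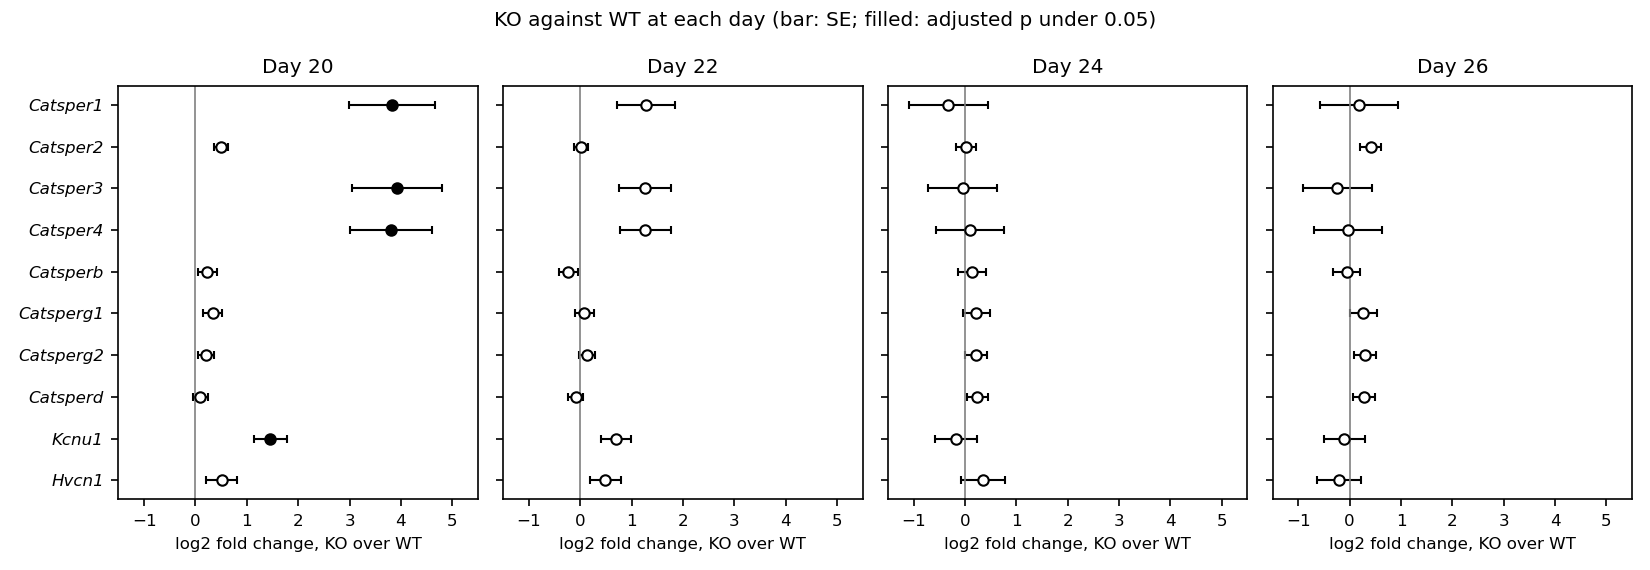
Difference between KO and WT in log2 fold change for each of the 10 genes at each day, with bars of 1 SE from the fit over all 24 libraries. Filled circles mark an adjusted p under 0.05, which only *Catsper1*, *Catsper3*, *Catsper4* and *Kcnu1* reach, at day 20, and the same 4 lie above 0 at day 22. At days 24 and 26, with 2 libraries a group, the same 4 lie between -0.32 and 0.18 with wide SEs of 0.407 to 0.768.

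At day 22 the same 4 genes had the largest differences, but edgeR called 0 of the 10, against 2.51% of all genes, with 4 of 10 at an unadjusted p under 0.05 and 0 called by DESeq2. *Catsper1* measured 16.2, 57.1, 29.7 and 25.5 CPM in KO (difference 1.29, SE 0.565, adjusted p = 0.278), and *Catsper3* measured 5.93, 21.3, 12.6 and 8.58 CPM (1.26, SE 0.511, adjusted p = 0.233). *Catsper4* measured 9.86, 28.4, 14.6 and 11.9 CPM in KO and at most 7.4 CPM in WT (1.27, SE 0.501, adjusted p = 0.212), the 1 gene of the 10 with no overlap, where 3.64% of all genes were higher without overlap. *Kcnu1* measured 22.1, 49.8, 35.9 and 24.8 CPM (0.7, SE 0.296, adjusted p = 0.25). KO_d22_2 was highest in all 4 genes and also in round spermatid markers, at 313 CPM, where the WT libraries had 58.1 to 84.1 CPM and the other KO libraries 83.2 to 168 CPM. With the stage score as covariate the differences were -0.12 for *Catsper1*, -0.07 for *Catsper3* and -0.04 for *Catsper4*, and that for *Kcnu1* is not given here.

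At days 24 and 26 no gene of the 10 was called in the fit over all days. *Catsper1* measured 39.9 and 49.6 CPM in KO at day 24 and 100 and 115 CPM at day 26, and *Kcnu1* 43 and 53.4 CPM and then 75.7 and 88.2 CPM. Elongating spermatid markers summed to 1250 and 527 CPM in KO at day 24 and 256 and 254 CPM in WT. Leydig markers summed to 860 and 989 CPM in KO and 481 and 674 CPM in WT, and peritubular markers to 419 and 426 CPM in KO and 481 and 533 CPM in WT. The part of these markers in the differences at day 24 was not tested. At day 24 *Catsperb*, *Catsperg1*, *Catsperg2* and *Catsperd* had both KO libraries above both WT libraries, 4 of the 10 genes against 22.6% of all genes. At day 26 this held for 5, *Catsper1*, *Catsper2*, *Catsperg1*, *Catsperg2* and *Catsperd*, against 27.8% of all genes, and *Catsper3* and *Hvcn1* had both KO libraries below, 2 of the 10 against 31.1% of all genes. *Catsper2* measured 201 and 210 CPM in KO at day 26 (0.41, SE 0.198, adjusted p = 0.436), and *Catsperg2* measured 208 and 195 CPM (0.3, SE 0.213, adjusted p = 0.616). edgeR called 0 of the 10 at day 24 (0.0874% of all genes, 0 of 10 unadjusted) and 0 at day 26 (0.0466% of all genes, 0 of 10 unadjusted), and DESeq2 also called 0 at both. With day 26 fitted alone, *Catsper2* (0.42, adjusted p = 0.0174) and *Catsperg2* (0.31, adjusted p = 0.0474) passed in edgeR. The share of all genes called in that fit is not given here, and 0.0466% belongs to the fit over all days. At day 26 the 6 pachytene markers summed to 5450 and 5400 CPM in KO and 4300 and 4650 CPM in WT, while peritubular markers summed to 303 and 260 CPM in KO and 418 and 351 CPM in WT, and spermatogonial markers to 148 CPM in both KO libraries and 175 and 162 CPM in WT. Leydig markers summed to 967 and 841 CPM in KO and 1740 and 1060 CPM in WT. Elongating spermatid markers summed to 2480 and 2410 CPM in KO and 2380 and 1330 CPM in WT. Round spermatid markers summed to 564 and 617 CPM in KO and 545 and 562 CPM in WT, and Sertoli markers to 1140 CPM in both KO libraries and 1040 and 910 CPM in WT. The part of any of these markers in the differences at day 26 was not tested.

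Over the mean of the 4 daily differences, 2 of the 10 genes were higher in KO, *Catsper3* (1.23, SE 0.359, adjusted p = 0.0454) and *Catsper4* (1.29, SE 0.343, adjusted p = 0.0324), against 3.52% of all genes. *Catsper1* gave 1.25 (SE 0.377) and missed the threshold in edgeR (adjusted p = 0.0522), but passed it in DESeq2 (1.28, adjusted p = 0.0362). With the stage score as covariate *Catsper3* gave 0.21 (adjusted p = 0.691) and *Catsper4* 0.24 (adjusted p = 0.523) in edgeR. The call of *Catsper3* was lost in 18 and that of *Catsper4* in 11 of the 24 fits that left out 1 library, with adjusted p up to 0.116 and 0.0897. The joint test of whether the KO effect differed between days called 0 of the 10 in edgeR (lowest adjusted p = 0.37, 4 of 10 at an unadjusted p under 0.05), 0 in DESeq2 and 0.00582% of all genes, so the larger difference at day 20 is not shown to differ from those of later days.

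Genes whose products work with these channels were taken from a list of 17, of which 14 were in the tables and all 14 were tested. In WT, 11 of the 14 rose from day 20 to day 26, against 24.4% of all genes. The largest rises were those of *Atp1a4*, which encodes the sodium pump of the sperm flagellum (9.22, SE 1, adjusted p = 7.06e-07), *Lrrc52*, which encodes the auxiliary subunit of SLO3 (7.94, SE 1.06, adjusted p = 7.1e-06), and *Efcab9*, which encodes a calcium-binding CatSper protein (6.76, SE 0.53, adjusted p = 3.97e-08 in edgeR). *Lrrc52* had at most 2 counts in any WT library of day 20, and against the floor of 3 counts its mean at day 26 was at least 67.2-fold higher. *Adcy10*, the soluble adenylyl cyclase that bicarbonate activates, rose by 2.43 (SE 0.231), and *Abhd2* by 1.6 (SE 0.257). *Slc9c1*, a sperm sodium and proton exchanger, rose by 1.07 (SE 0.221), and 5 others, *Tex40* (the symbol used for *Catsperz*), *Als2cr11* (for *C2cd6*), *Slco6c1*, *Trim69* and *Slc26a8*, by 0.69 to 0.85. *Gm16432* (for *Catspere2*, -0.17), *Prkaca* (0.61) and *Atp2b4* (0.31) did not pass in edgeR (adjusted p = 0.546, 0.0579 and 0.15). *Prkaca* passed in DESeq2 (0.65, adjusted p = 0.0436) and in edgeR with other size factors (0.65, adjusted p = 0.0453). With a block on replicate number, edgeR called *Prkaca* (0.8, adjusted p = 0.016) and *Atp2b4* (0.45, adjusted p = 0.0153). That block lost *Tex40* (0.55, adjusted p = 0.0808) and *Slco6c1* (0.58, adjusted p = 0.0645). The calls of *Tex40*, *Slco6c1* and *Slc26a8* did not hold in 5, 5 and 4 of the 24 fits without 1 library, and *Tex40* overlaps *Kcnk4* on the same strand. The median over the 14 was 0.81 and over all genes -0.04.

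At day 20, 2 of the 14 were higher in KO, against 2.98% of all genes, and these were *Efcab9* and *Atp1a4*. *Efcab9* measured 2.32, 1.96, 7.07 and 8.74 CPM in KO and 0.393, 0.527, 0.405 and 1.15 CPM in WT, with no overlap (3.01, SE 0.518, adjusted p = 0.00569 in edgeR). Its call was kept in all 24 fits that left out 1 library (adjusted p up to 0.034) and was lost with the stage score as covariate (0.98, adjusted p = 0.434) and, at a near-equal difference, with day 20 fitted alone (3.0, adjusted p = 0.158). *Atp1a4* measured 1.89, 0.654, 8.59 and 16.5 CPM in KO and 0.472, 0, 0.173 and 0.72 CPM in WT (4.25, SE 1.01, adjusted p = 0.0238 in edgeR), and lost its call without WT_d20_1, WT_d20_2, WT_d20_3, KO_d20_3 or KO_d20_4. It was not called with the stage score as covariate (0.14, adjusted p = 1.0) or with day 20 fitted alone (4.26, adjusted p = 0.163 in edgeR). Here KO_d20_2 lay within the WT range, as for *Catsper1*. *Lrrc52* measured 0.435, 0, 1.45 and 2.84 CPM in KO, at least 5.03-fold above the WT floor on the mean, and was not called (adjusted p = 0.0858 in edgeR). No other of the 14 passed at day 20 in edgeR, while DESeq2 called *Lrrc52* and *Adcy10* as well. At days 22, 24 and 26 edgeR called 0 of the 14 in the fit over all days, with 4, 1 and 0 at an unadjusted p under 0.05. DESeq2 called 1, 0 and 0, the 1 being *Atp1a4*. With day 26 fitted alone, *Slc26a8* (0.52, adjusted p = 0.00968), *Als2cr11* (0.35, adjusted p = 0.0295) and *Tex40* (0.32, adjusted p = 0.0401) passed in edgeR. The share of all genes called in that fit is not given here. Over the mean of days 4 were higher in KO, against 3.52% of all genes, namely *Efcab9* (0.95), *Lrrc52* (1.7), *Adcy10* (0.49) and *Atp1a4* (1.81), with adjusted p from 0.0214 to 0.0339 in edgeR. With the stage score as covariate none of these 4 was called, at 0.24 for *Efcab9* (adjusted p = 0.284), 0.19 for *Lrrc52* (0.794), 0.34 for *Adcy10* (0.198) and 0.37 for *Atp1a4* (0.282). Of the 24 fits without 1 library, 14 lost the call of *Lrrc52*, 6 that of *Efcab9*, 4 that of *Atp1a4* and 3 that of *Adcy10*. In KO 11 of the 14 rose from day 20 to day 26, against 27.2% of all genes, among them *Atp1a4* (5.12, SE 0.751), *Lrrc52* (4.09, SE 0.714) and *Efcab9* (3.49, SE 0.43). The test of whether the rise differed between genotypes called none of the 14 in edgeR (3 at an unadjusted p under 0.05), with -3.26 for *Efcab9* (SE 0.726, adjusted p = 0.139), which DESeq2 called (-3.23, adjusted p = 0.00267). In the joint test over days *Efcab9* was called by DESeq2 (adjusted p = 0.00202) and not by edgeR (adjusted p = 0.285).

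The gene whose log2 level followed each member most closely was found over the 24 libraries, which differ in genotype, age and depth, and the correlations are given as a description. *Catsper3* was closest to *Spata31* (Pearson r = 0.998), *Catsper1* to *Dcst1* (0.997), *Catsper4* to *Actl7a* (0.997) and *Kcnu1* to *4430402I18Rik* (0.995). Among the members, *Catsper3* and *Catsper4* were closest to each other (0.995). *Catsper2* was closest to *Aqp11* (0.99) and, among the members, to *Catsper1* (0.934). *Catsperb* was closest to *Lrriq3* (0.979), *Catsperg1* to *Adam1b* (0.973), *Catsperg2* to *Abca17* (0.969) and *Catsperd* to *Cfap70* (0.969), and the 2 gamma genes were closest to each other among the members (0.959). *Hvcn1* had no close partner, with 0.781 for *Nrn1* and at most 0.264 for any member.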

How the data were processed

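Stranded total RNA of testis, depleted of ribosomal RNA, was sequenced as 75-base pairs. The authors aligned reads with STAR 2.7.11b to mm10 and counted pairs per gene with HTSeq, and deposited, for each gene symbol, the raw counts. The counts were made by strand and without pairs that aligned to several places, and the version of the gene models is not given in the sources used here. Tallies of pairs assigned to no gene were kept out. The extraction protocol and the source label differ on whether cells were fractionated.

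After TMM scaling, edgeR 4.0.16 (R 4.3.3) ran its quasi-likelihood test with 1 coefficient for each of 8 groups over 24 libraries, after a filter on low counts (minimum count 10). The Benjamini-Hochberg adjustment covered 17170 genes, and genes were called at 0.05. CPM used the scaled library sizes, log2 levels a prior count of 2, and levels per kilobase the union of exons in GENCODE M21. The 10 genes and all lists were chosen with earlier results of these data known. Named were these 10 genes, the listed partners, *Atad2* and the gene most like each of the 10. Alternatives for the fits were other size factors, DESeq2 1.42.0, no filter, each day alone, a stage score, a replicate block and leaving out each library. Those for levels were another prior count (0.5) and transcript length. The fits were tested on simulated data. Replicates of each group differed by more than counting noise (lowest chi-square per gene 4.78).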

Additional observations from a re-analysis of the deposited data

How the results depend on the processing

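At day 20 the number of the 10 genes called went from 4 to 0 with the stage score, to 0 with each day alone and to 5 with DESeq2, and at day 26 from 0 to 2 with each day alone. Over the mean of days it went from 2 to 1 without the filter, to 0 with the stage score and to 3 with DESeq2 or the replicate block, both of which added *Catsper1*. DESeq2 gave 1 for WT from day 22 to day 24, 1 for KO from day 24 to day 26 and 1 for the difference in rise between genotypes. Other counts moved by 1: to 9 for WT from day 20 to day 22 (DESeq2, other size factors, replicate block; *Catsperg2*), to 6 for KO over the same days (DESeq2; *Catsperg1*), to 9 for KO from day 20 to day 26 (other size factors; *Catsperb*) and to 2 for WT from day 22 to day 24 (no filter, replicate block; *Catsper4* lost). The causes were not tested, and the share of all genes called under each alternative is not given here. The stage score also turned the sign of *Kcnu1* at day 20 (-0.02) and over the mean of days (-0.05), and at day 22 that of *Catsper1* (-0.12), *Catsper2* (-0.1), *Catsper3* (-0.07) and *Catsper4* (-0.04).

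Leaving out 1 library gave 0 to 5 genes at day 20, 0 to 4 over the mean of days, 8 to 9 for WT from day 20 to day 26, 6 to 9 from day 20 to day 22 and 0 to 4 from day 22 to day 24. In KO it gave 8 to 9 from day 20 to day 26, 0 to 6 from day 20 to day 22 and 0 to 1 from day 24 to day 26. For the difference in rise it gave 0 to 4, and for the joint test over days 0 to 1, each with the highest count without KO_d20_2. Signs turned for *Catsperd* at day 20 (-0.04 to 0.2) and day 22 (-0.18 to 0.02), *Catsper2* (-0.07 to 0.1) and *Catsperg1* (-0.1 to 0.21) at day 22, and *Catsperb* over the mean of days (-0.01 to 0.09).

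The replicate numbers were not shown to pair the samples, since same-numbered libraries correlated at 0.071 to 0.41 at day 20, 0.39 at day 24 and 0.416 at day 26 but at -0.459 to -0.025 at day 22. With a replicate block the difference in rise gave 1 gene, *Catsper4*, and day 20 gave 5, with *Catsper2* added. Depth limits *Catsper1*, *Catsper3* and *Catsper4* in WT at day 20, where libraries held 0 to 19 counts, and days 24 and 26 rest on 2 libraries a group.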
